A study of Homo sapiens with 6 samples.

Results

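The tumour necrosis factor (TNF) superfamily was examined in AC16 cells, an immortal human line derived by fusion of ventricular heart muscle cells with transformed fibroblasts. Members were taken by name, as rows called TNFSF or TNFRSF with a number, together with TNF, FAS, FASLG, CD40, LTA, LTB, LTBR, NGFR, EDA2R, CD27 and CD70. This gave 42 genes of 29638 listed, 16 ligands and 26 receptors. The control group was 3 libraries of wild-type AC16 cells that received ethanol, and the PA group was 3 libraries of wild-type AC16 cells that received the fatty acid. The treatment label reads palmitelaidic acid, whereas the title of the series names palmitic acid, so the agent is called PA here. Dose and duration are not stated in the labels. They also do not say whether the 3 libraries in a group were grown as separate cultures, and p-values therefore cover only how far these samples vary, and that variation may be technical.

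Ligands of this family are trimeric proteins, mostly anchored in the membrane, that cluster receptors on the same or a neighbouring cell. Receptors with a death domain can recruit adaptors that activate caspases, while those that bind TRAF proteins mainly activate NF-kB and JNK kinases. Decoy receptors bind ligand without a complete signalling tail, and osteoprotegerin (TNFRSF11B) is a secreted decoy for RANKL and TRAIL. In the heart, TNF, FAS ligand and TWEAK are known from work on injury and failure, and osteoprotegerin is studied as a circulating marker of vascular and cardiac disease.

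Values were RPKM, read numbers scaled for transcript length and library size, so levels of different genes can be set side by side. They summed to between 733025 and 881369 per library, which is not a read depth. Steps among the low values placed PA 1 at 1.13 to 1.14 times the average depth of the remaining libraries and the other 5 libraries at 0.928 to 1.03. Although the label calls the cells cardiomyocytes, the cardiac genes MYH6, MYH7, TTN and MYBPC3 were under 0.1 RPKM in every library, and the 10 cardiomyocyte markers together reached 1.30 to 2.48 RPKM in control and 3.32 to 4.71 RPKM in PA. Most of that difference was TNNI3, which rose from 0.913 to 3.30 RPKM, while NPPA had a mean of 0.177 RPKM in control and was listed at 0 in all PA libraries. The 8 fibroblast markers summed to 575.2 to 678.8 RPKM in control and 346.9 to 536.0 RPKM in PA.

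Receptors were abundant and ligands were scarce. Of the 42 members, 5 had a mean of at least 50 RPKM over the 6 libraries, 3 lay between 10 and 50, 13 lay between 1 and 10, and 21 were under 1. The 8 genes above 10 RPKM were all receptors, whereas 12 of 16 ligands and 9 of 26 receptors were under 1 RPKM. TNFRSF12A, the receptor of TWEAK also called Fn14, had the highest mean, above 95.7% of the genes tested. TNFRSF10D, LTBR, TNFRSF10B and TNFRSF1A followed. The most abundant ligand transcript in PA was TNFSF4, at 10.6 RPKM, and in control TNFSF12, at 5.71 RPKM.

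**Figure D1:**
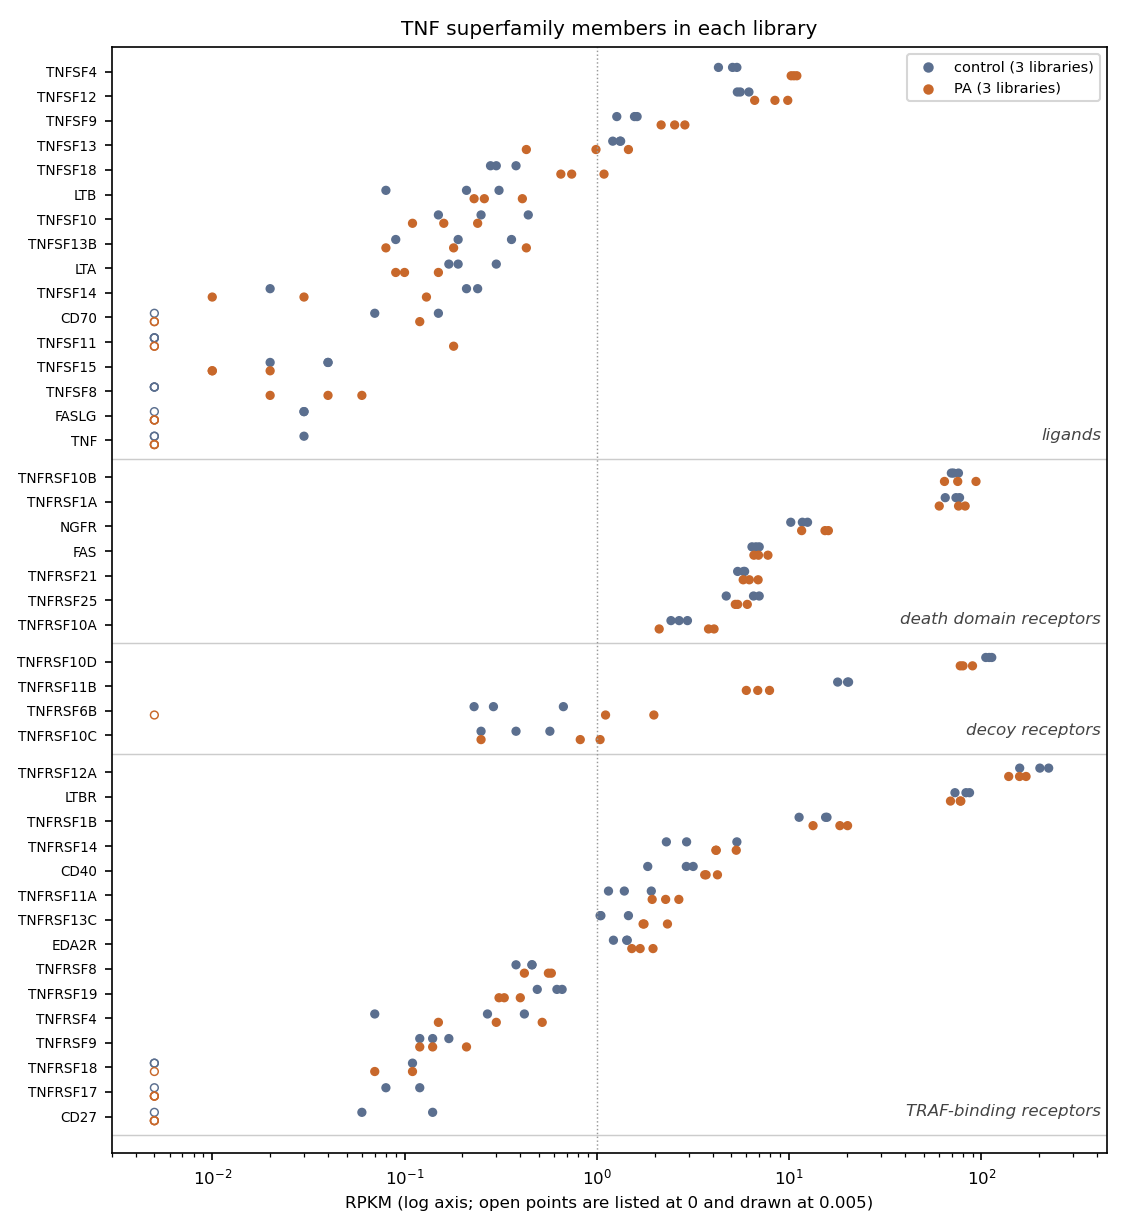
RPKM of each of the 42 members on a log axis, by role; each point is 1 library, 3 control and 3 PA, and open points are values listed at 0. Ligands lie mostly to the left of 1 RPKM, and the separation between groups is clear to the eye for TNFSF4 and TNFRSF11B.

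In PA against control, TNFRSF11B fell and TNFSF4 rose, and no other member passed. Of the 21 members with a mean of at least 1 RPKM, 1 passed a limma adjusted p of 0.05 as higher and 1 as lower, or 9.52%, where 4.81% of 14159 genes tested passed (2.84% higher and 1.97% lower). A count of 2 is too small to set the family apart from that background. At an unadjusted p of 0.05, 8 of 21 members passed, beside 3663 of 14159 genes. The log2 fold change was positive in 15 members and negative in 6, with a median of 0.20, beside a median of -0.02 and positive values in 47.5% of all genes tested. In 9 members, 42.9%, the 3 PA values lay on one side of the 3 control values, where 32.6% of all genes did so. Of these, 7 were higher (16.7% of all genes) and 2 lower (15.9%).

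**Figure D2:**
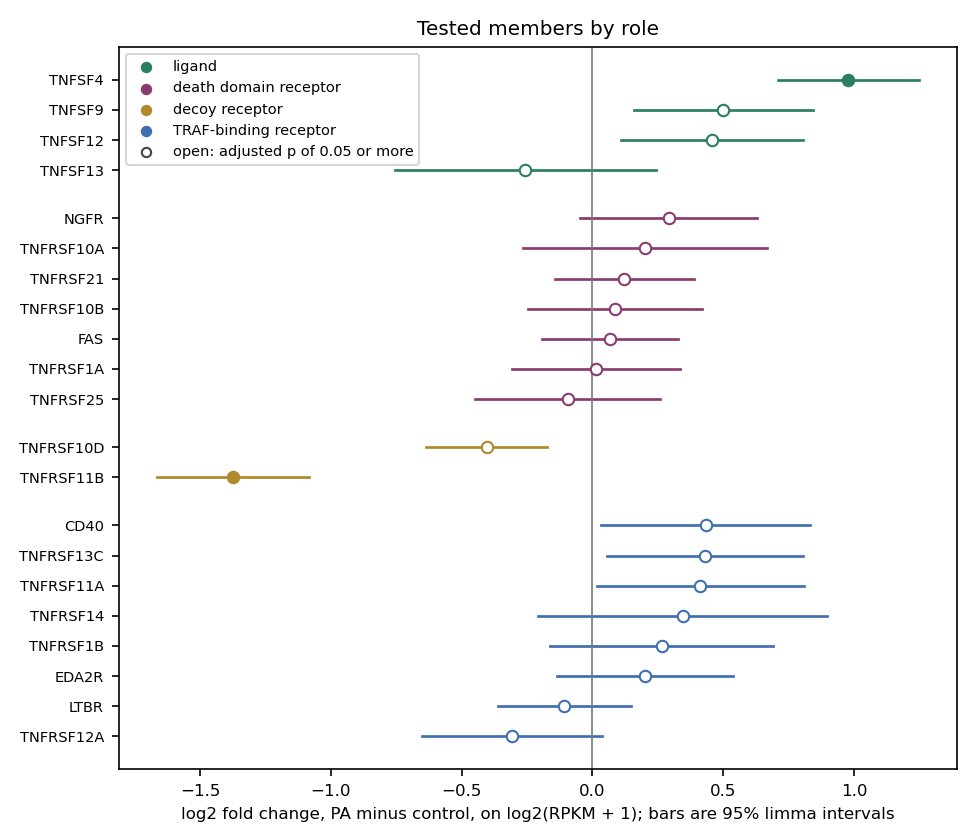
Log2 fold change of PA against control on log2(RPKM + 1) for the 21 tested members, by role, with 95% limma intervals; filled points passed an adjusted p of 0.05. TNFSF4 at 0.98 and TNFRSF11B at -1.37 are the filled points, both tested decoy receptors lie below 0, and the intervals of all 7 death domain receptors include 0.

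Among ligands, TNFSF4 rose. It encodes OX40L, which stimulates T cells through OX40 and is made by antigen-presenting cells, endothelium and smooth muscle. TNFSF4 was at 5.08, 4.29 and 5.35 RPKM in control 1 to 3 and at 11.0, 10.6 and 10.3 RPKM in PA 1 to 3. All PA values lay at about the same height and well above all control values. The means were 4.91 ± 0.551 and 10.6 ± 0.360 RPKM (SD, n = 3 per group), a 2.16-fold difference. On the log2(RPKM + 1) scale the change was 0.98 ± 0.12 (SE), with a 95% interval of 0.71 to 1.25 and a limma adjusted p of 0.0123. The call was lost without control 1 (limma adjusted p = 0.0751) and without PA 2 (limma adjusted p = 0.0828). In bulk samples a change in the share of expressing cells and a change in RNA per cell cannot be told apart.

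Its receptor gene TNFRSF4, which encodes OX40, stayed low, between 0.07 and 0.42 RPKM in control and between 0.15 and 0.52 RPKM in PA. Among markers of cells known to make OX40L, some rose as TNFSF4 did and others did not. Of 6 endothelial markers, 5 had listed values and 2 were tested. Both rose, EGFL7 from 27.7 to 47.1 RPKM and TIE1 from 5.62 to 9.76 RPKM. The 5 with values summed to 27.5 to 40.4 RPKM in control and 56.0 to 60.2 RPKM in PA. The endothelial cadherin gene CDH5 was under 0.1 RPKM in every library. KDR had means of 0.817 and 0.880 RPKM in control and PA, and VWF had means of 0.0267 and 0.08 RPKM. The 5 smooth muscle markers summed to 61.9 to 77.3 RPKM in control and 109.6 to 113.3 RPKM in PA, nearly all of it ACTA2 and TAGLN, which rose. Of the same list, CNN1 had means of 2.04 and 2.37 RPKM in control and PA (limma adjusted p = 0.562), DES had means of 0.810 and 1.66 RPKM (limma adjusted p = 0.140), and MYH11 was lower in every PA library, at means of 0.170 and 0.0733 RPKM. The 7 leukocyte markers summed to 43.6 to 54.8 RPKM in control and 65.6 to 76.4 RPKM in PA, mostly CD68. CD14 rose, while PTPRC, CD3E and ITGAM were under 0.1 RPKM in every library. LYZ had means of 0.133 RPKM in control and 0.0733 RPKM in PA. Rises were not limited to these cell types. The epithelial marker KRT8 rose from 38.4 to 60.6 RPKM (limma adjusted p = 0.0288), while KRT18 and EPCAM did not pass (limma adjusted p of 0.731 and 0.644). All 6 libraries were of the AC16 line, and how these marker changes relate to the TNFSF4 result was not tested.

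TNFSF9, TNFSF12 and TNFSF18 were also higher in every PA library than in any control library, but none of them is a call. TNFSF9, which encodes the T cell costimulator 4-1BBL, was at 1.27, 1.62 and 1.57 RPKM in control and 2.87, 2.16 and 2.54 RPKM in PA. Its log2 fold change was 0.50 ± 0.15 (SE, limma adjusted p = 0.0887). TNFSF12, which encodes TWEAK, a ligand studied in muscle and heart remodelling, was at 6.18, 5.57 and 5.38 RPKM in control and 6.62, 9.84 and 8.44 RPKM in PA. The groups nearly touched, at 6.18 in control 1 and 6.62 in PA 1, and the log2 fold change was 0.46 ± 0.15 (SE, limma adjusted p = 0.111). Exons of TNFSF12 are shared with the readthrough gene TNFSF12-TNFSF13, listed at means of 0.967 RPKM in control and 0.880 RPKM in PA, so its reads may not be separable. TNFSF18, which encodes GITRL, was under the expression filter and untested, at 0.28, 0.30 and 0.38 RPKM in control and 0.65, 0.74 and 1.09 RPKM in PA.

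The summed RPKM of the 16 ligands was 14.9 ± 0.577 in control and 24.2 ± 1.70 in PA, and the groups did not overlap. TNFSF4 accounted for 32.9% ± 3.52 of that sum in control and 43.9% ± 4.12 in PA (SD, n = 3 per group). TNFSF13, which encodes APRIL, a B cell survival factor, had a mean of 1.29 RPKM in control and 0.960 RPKM in PA, where its values ran from 0.43 to 1.46. That spread covered the control values, and the log2 fold change of -0.26 did not pass (limma adjusted p = 0.483). Exons of TNFSF13 are also shared with TNFSF12-TNFSF13, at means of 0.967 RPKM in control and 0.880 RPKM in PA. Reads of TNFSF13 may therefore not be separable.

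The upstream sequences of TNFSF4, TNFSF18 and TNFSF9 are shown because TNFSF4 carries the call, TNFSF18 is its neighbour on the chromosome, and TNFSF9 is the ligand gene nearest to the threshold. Each run holds the 250 bases before the start site in RefSeq (GRCh38.p14), on the gene's own strand from 5′ to 3′. TNFSF4 lies at chr1:173205533-173205782 (minus strand), TNFSF18 at chr1:173050942-173051191 (minus strand) and TNFSF9 at chr19:6530776-6531025 (plus strand). Capitals mark any match, on either strand, to the core promoter element TATAAA, the AP-1 element TGANTCA, a loose NF-kB pattern (GGG and CC with any 5 bases between) or the EGR element GCGNGGGCG.
TNFSF4: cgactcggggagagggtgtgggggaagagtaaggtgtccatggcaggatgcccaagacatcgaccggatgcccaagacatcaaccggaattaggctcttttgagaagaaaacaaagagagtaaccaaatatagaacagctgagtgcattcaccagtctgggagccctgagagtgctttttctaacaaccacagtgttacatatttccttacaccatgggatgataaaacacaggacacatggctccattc
TNFSF18: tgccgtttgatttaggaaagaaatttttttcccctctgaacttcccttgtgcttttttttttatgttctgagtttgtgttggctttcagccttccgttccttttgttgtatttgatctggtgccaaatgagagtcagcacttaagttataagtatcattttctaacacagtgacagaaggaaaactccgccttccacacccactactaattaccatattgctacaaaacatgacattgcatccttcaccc
TNFSF9: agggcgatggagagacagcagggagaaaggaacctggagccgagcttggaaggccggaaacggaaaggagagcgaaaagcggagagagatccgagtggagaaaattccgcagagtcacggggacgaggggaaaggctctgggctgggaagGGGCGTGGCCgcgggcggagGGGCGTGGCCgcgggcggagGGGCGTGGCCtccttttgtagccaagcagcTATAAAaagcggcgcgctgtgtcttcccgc
TNFSF4 and TNFSF18 held no match to any of the 4 patterns in this window. TNFSF9 held 1 match to TATAAA, starting at -30 from the start site, and 3 separate matches to the loose NF-kB pattern within a repeated GC-rich stretch. Of 35114 such windows in RefSeq, 10.7% held TATAAA, 6.57% TGANTCA, 54.4% the loose NF-kB pattern and 8.41% GCGNGGGCG. GC content was 48.0%, 38.8% and 64.4% for TNFSF4, TNFSF18 and TNFSF9. A match or its lack describes these letters alone.

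Among decoy receptors, TNFRSF11B fell. Osteoprotegerin, its product, is secreted and keeps RANKL from its receptor RANK. TNFRSF11B was at 17.9, 20.1 and 20.4 RPKM in control 1 to 3 and at 6.87, 5.99 and 7.91 RPKM in PA 1 to 3. The groups stood far apart, from 17.9 as the lowest control value to 7.91 as the highest PA value. The means were 19.5 ± 1.37 and 6.92 ± 0.961 RPKM (SD, n = 3 per group), so PA retained 0.356 of the control level. The log2 fold change was -1.37 ± 0.13 (SE), with a 95% interval of -1.67 to -1.08 and a limma adjusted p of 0.00731. Without PA 2 the log2 fold change was -1.29 and the limma adjusted p 0.0507. Most fibroblast markers were lower too, with 6 of 7 tested markers negative, but only COL3A1 and FAP passed the threshold. COL1A1 went from a mean of 299.2 to 138.7 RPKM and just missed it (limma adjusted p = 0.0510). DCN, LUM and THY1 did not pass (limma adjusted p of 0.132, 0.272 and 0.702). COL1A2 was higher, with its mean going from 25.1 to 28.6 RPKM, and did not pass (limma adjusted p = 0.335). The part of these markers in the TNFRSF11B result was not tested.

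The partners of osteoprotegerin were low. TNFRSF11A, which encodes RANK, was at 1.92, 1.39 and 1.15 RPKM in control and 2.28, 2.67 and 1.94 RPKM in PA. The groups all but touched, at 1.92 in control 1 and 1.94 in PA 3, and the log2 fold change of 0.41 ± 0.17 (SE) did not pass (limma adjusted p = 0.178). TNFSF11, which encodes RANKL, was listed at 0 in 5 libraries and at 0.18 RPKM in PA 3. The ratio of TNFRSF11B to TNFRSF11A RPKM was 13.8 ± 4.24 in control and 3.11 ± 0.921 in PA (SD, n = 3 per group). It ranged from 9.32 to 17.7 in control and from 2.24 to 4.08 in PA.

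TNFRSF10D, which encodes a membrane decoy receptor of TRAIL with a truncated death domain, was at 113.2, 105.4 and 109.8 RPKM in control and 89.9, 80.2 and 77.6 RPKM in PA. All PA values lay below all control values. The log2 fold change was -0.40 ± 0.10 (SE), with a 95% interval of -0.64 to -0.17, and just missed the threshold (limma adjusted p = 0.0595). It passed with quantile normalization (-0.48, limma adjusted p = 0.0420) and with a trend on length and GC taken out, where the log2 fold change was smaller (-0.29, limma adjusted p = 0.0314). It passed under no other alternative, and leaving out each library in turn gave limma adjusted p of 0.0667 to 0.222. TRAIL receptor genes are close relatives in sequence, and no source used here says how reads shared by such genes were assigned, so their separate values are uncertain. TNFRSF10C, another decoy, was at 0.38, 0.57 and 0.25 RPKM in control and 0.82, 0.25 and 1.04 RPKM in PA, and TNFRSF6B, which binds FAS ligand, was between 0 and 1.98 RPKM. The 4 decoy genes summed to 129.8 ± 2.89 RPKM in control and 91.2 ± 6.56 RPKM in PA, most of it TNFRSF10D. TNFRSF6B exons overlap the readthrough gene RTEL1-TNFRSF6B, listed at means of 6.71 RPKM in control and 4.25 RPKM in PA.

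Within the TRAIL receptors the shares of decoy and death receptor transcripts did not overlap between groups, a description with no test. TNFRSF10D made up 58.8%, 59.2% and 59.6% of the summed RPKM of the 4 genes in control 1 to 3 and 47.7%, 50.3% and 53.5% in PA 1 to 3. Control libraries were nearly alike, and PA libraries were lower and more scattered. The means were 59.2% ± 0.379 and 50.5% ± 2.92 (SD, n = 3 per group), a difference of -8.69 percentage points that ranged from -10.2 to -7.29 when each library was left out in turn. The share of TNFRSF10B, the death receptor DR5, was 39.2% ± 0.306 in control and 47.1% ± 2.71 in PA, while its RPKM did not differ beyond the spread. Shares within a library are free of library scaling, and these shares were chosen for description after the values were seen. TRAIL itself, TNFSF10, was between 0.15 and 0.44 RPKM in control and between 0.11 and 0.24 RPKM in PA.

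**Figure D3:**
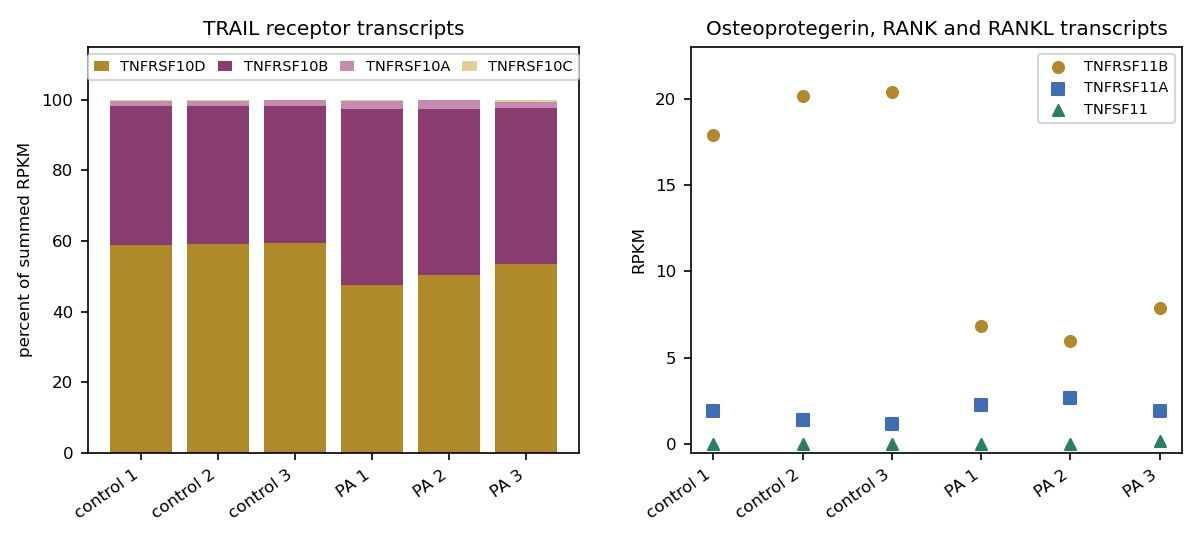
Left, share of each TRAIL receptor gene in their summed RPKM per library, as stacked bars from 0 to 100%; right, RPKM of TNFRSF11B, TNFRSF11A and TNFSF11 per library. TNFRSF10D averages 59.2% of the bar in control and 50.5% in PA, and TNFRSF11B lies at 17.9 to 20.4 RPKM in control and 5.99 to 7.91 RPKM in PA.

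Death domain receptors had no call. None of the 7 passed limma, where 4.81% of all genes did, and 7 genes are too few to set this role apart from that share. None passed at an unadjusted p of 0.05 (3663 of 14159 genes did), and none had groups that did not overlap (32.6% of all genes did). The median log2 fold change was 0.08. TNFRSF1A, the main TNF receptor of most tissues, was at 77.0, 73.7 and 64.9 RPKM in control and 76.1, 82.3 and 60.4 RPKM in PA. Values of the groups were interleaved, and the log2 fold change was 0.01 with a 95% interval of -0.31 to 0.33. TNFRSF10B was at 76.0, 69.8 and 71.6 RPKM in control and 93.7, 75.3 and 64.3 RPKM in PA, for which the log2 fold change was 0.08 (interval -0.25 to 0.42). PA 1, the library with the highest relative depth, held its highest value and PA 3 its lowest.

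FAS, the receptor of FAS ligand, had means of 6.71 ± 0.290 and 7.08 ± 0.615 RPKM in control and PA (SD, n = 3 per group). Its log2 fold change of 0.07 had an interval of -0.19 to 0.33. FAS exons overlap those of ACTA2 on the opposite strand. ACTA2 rose from 16.6 to 23.9 RPKM, and no source used here says whether counting was stranded. NGFR, the low-affinity neurotrophin receptor, had a log2 fold change of 0.29 (interval -0.05 to 0.63), and TNFRSF10A, the TRAIL receptor DR4, of 0.20 (interval -0.27 to 0.67). TNFRSF21, the receptor DR6, had a log2 fold change of 0.12 (interval -0.14 to 0.39), and TNFRSF25, the receptor of TL1A, of -0.09 (interval -0.45 to 0.26). TNFRSF25 exons overlap those of PLEKHG5 on the same strand, so its reads may not be separable. PLEKHG5 was listed at means of 4.92 RPKM in control and 5.37 RPKM in PA. Changes within the intervals given for these receptors are compatible with the values, so the lack of a call does not show a lack of change. The bounds are not a limit of detection. The ligands of these receptors were near the bottom of the scale: TNF was listed at 0 in 5 libraries and at 0.03 RPKM in control 3, and FASLG at 0.03 RPKM in control 1 and control 2 and at 0 elsewhere.

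Receptors that bind TRAF proteins and lack a death domain had no call among 8 tested, with a median log2 fold change of 0.30. CD40, a costimulatory receptor of B cells and antigen-presenting cells, was at 3.17, 2.92 and 1.84 RPKM in control and 4.24, 3.70 and 3.64 RPKM in PA. The groups did not overlap, but control 3 stood low, and the log2 fold change of 0.43 ± 0.17 (SE, limma adjusted p = 0.164) was 0.26 without control 3. TNFRSF13C, which encodes the BAFF receptor of B cells, was at 1.46, 1.05 and 1.04 RPKM in control and 1.74, 2.33 and 1.76 RPKM in PA (log2 fold change 0.43 ± 0.16 SE, limma adjusted p = 0.146). EDA2R, a receptor of ectodysplasin A2 on the X chromosome, was at 1.43, 1.22 and 1.44 RPKM in control and 1.96, 1.68 and 1.52 RPKM in PA. Its groups lay close, at 1.44 in control 3 and 1.52 in PA 3, and the log2 fold change of 0.20 did not pass (limma adjusted p = 0.415).

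**Figure D4:**
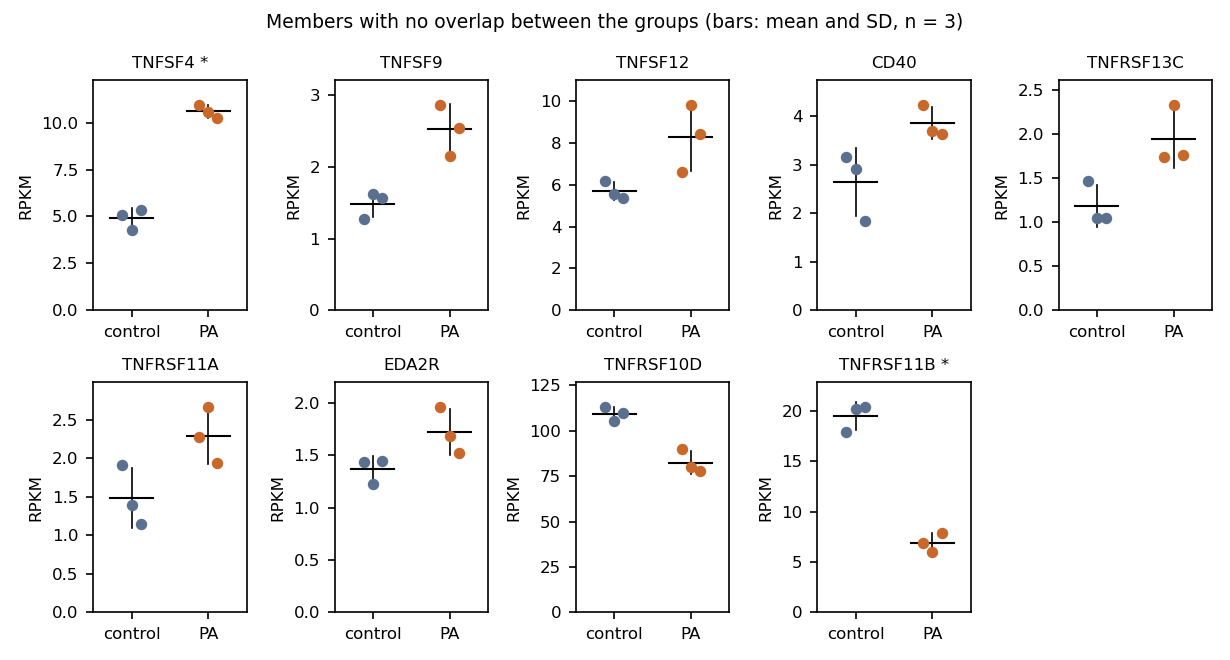
RPKM per library for the 9 tested members whose groups did not overlap, with the mean (horizontal line) and SD (vertical line) of 3 libraries per group, from axes that start at 0; a star marks an adjusted p under 0.05. TNFSF4 and TNFRSF11B show gaps several times the spread, whereas the groups of EDA2R and TNFRSF11A all but touch.

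TNFRSF12A, the member with the highest level, was at 201.4, 223.8 and 158.2 RPKM in control and 170.7, 138.7 and 157.9 RPKM in PA. Control 3 lay among the PA values. Its log2 fold change was -0.31 ± 0.15 (SE, limma adjusted p = 0.236), and it passed once a trend on length and GC was taken out (-0.45, limma adjusted p = 0.0272). LTBR, the lymphotoxin beta receptor, which signals to non-canonical NF-kB, was at 83.1, 86.8 and 72.9 RPKM in control and 78.2, 77.6 and 69.1 RPKM in PA (log2 fold change -0.11, limma adjusted p = 0.571). TNFRSF1B, the second TNF receptor, was at 0.26 and TNFRSF14, the herpesvirus entry mediator, at 0.34 on the log2 fold change scale, and neither passed (limma adjusted p of 0.400 and 0.396).

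The other members below 1 RPKM were not tested. Those not named so far are the receptors TNFRSF8, TNFRSF9, TNFRSF17, TNFRSF18, TNFRSF19 and CD27 and the ligands LTA, LTB, CD70, TNFSF8, TNFSF13B, TNFSF14 and TNFSF15. Of the 21 untested members, 17 had overlapping groups and 9 were listed at 0 in at least 1 library. The share of all genes with separate groups covers tested genes only. Whether separate groups are unusual at levels below 1 RPKM was not tested. TNFRSF19, a receptor of stem and progenitor cells, was lower in every PA library, at 0.49, 0.62 and 0.66 RPKM in control and 0.40, 0.31 and 0.33 RPKM in PA. LTA, which encodes lymphotoxin alpha, was also lower, at 0.30, 0.19 and 0.17 RPKM in control and 0.10, 0.09 and 0.15 RPKM in PA. TNFSF8 was listed at 0 in all control libraries and at 0.02, 0.04 and 0.06 RPKM in PA. Without counts, a listed 0 may also stand for an estimate that failed.

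Genes that carry the receptor signal went both ways. Of 31 adaptors and ubiquitin enzymes, all tested, 1 passed (3.23%, below the 4.81% of all genes), TRAF4, an adaptor of the TRAF family. TRAF4 was at 34.7, 37.0 and 34.1 RPKM in control and 48.6, 48.4 and 47.1 RPKM in PA, with a gap much wider than the spread in each group. Its log2 fold change was 0.44 ± 0.09 (SE, limma adjusted p = 0.0426), and the call was lost when any 1 of the 6 libraries was left out (limma adjusted p 0.0533 to 0.180). The list had 15 positive and 16 negative values and a median of -0.02, the same as that of all genes.

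Of 14 tested rows of the death signalling list, 1 passed (7.14%, near the 4.81% of all genes). MLKL, the executor of necroptosis, was at 7.69, 7.90 and 7.28 RPKM in control and 4.14, 5.15 and 5.02 RPKM in PA, and its log2 fold change was -0.58 ± 0.12 (SE, limma adjusted p = 0.0391). That call was lost when any 1 of the 6 libraries was left out (limma adjusted p 0.0560 to 0.161). The median of the list was -0.07.

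None of 8 genes for ligand and receptor shedding passed limma, where 4.81% of all genes did. None passed at an unadjusted p of 0.05 (3663 of 14159 genes did). A set of 8 is too small to tell apart from the share of all genes past limma. The median was -0.13, and 2 genes, TIMP3 and ADAM17, were lower in every PA library than in any control library. FRMD8, a cofactor of the sheddase ADAM17, was at -0.37, and ERAP1, an aminopeptidase linked to TNF receptor release, at -0.36 on the log2 fold change scale. Of 9 NF-kB subunits and inhibitors none passed limma and 2 passed at an unadjusted p of 0.05, no larger a share than that of all genes. NFKB2, the non-canonical subunit, was higher in every PA library at 0.40 (limma adjusted p = 0.0730), and REL was at -0.37 (limma adjusted p = 0.353). RELT, a family receptor outside the naming rule, had means of 10.7 and 9.88 RPKM in the control and PA groups (limma adjusted p = 0.657), and EDA and EDAR were below the filter.

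Of 20 tested genes that TNF is known to induce, 4 passed as lower and none as higher (4.81% of all genes passed). The median was -0.27, with 6 positive and 14 negative values. Groups did not overlap in 7 genes that were lower in PA and in 3 that were higher. Those higher were TNFAIP8 (0.42), ICAM1 (0.35) and PTX3 (0.21), and none of them passed (limma adjusted p of 0.0833, 0.108 and 0.278). The chemokine gene CCL2 was at 7.08, 9.30 and 8.53 RPKM in control and 3.03, 2.67 and 4.34 RPKM in PA, and all PA values were below all control values. CXCL1, a neutrophil chemokine, was at 137.4, 164.8 and 119.4 RPKM in control and 88.7, 75.7 and 86.1 RPKM in PA. IL6 (-0.66) and CXCL3 (-0.55) were the other calls. These 4 genes and TNFRSF11B were known as lower from earlier results of these data, so they are no independent evidence of a direction. No gene of this list passed when control 1, control 2, control 3, PA 1 or PA 2 was left out, and 4 passed without PA 3.

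**Figure D5:**
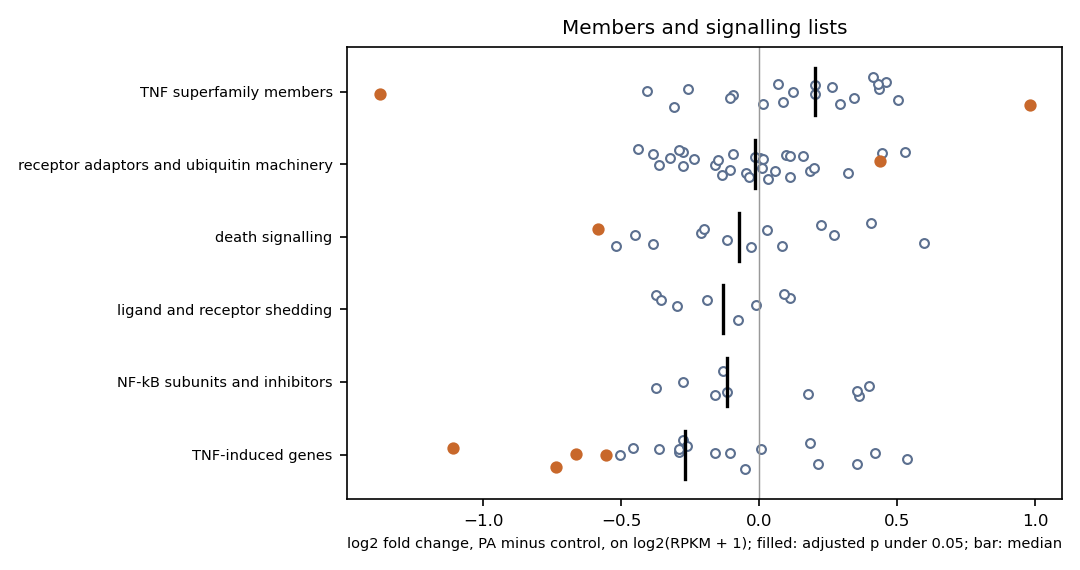
Log2 fold change of PA against control on log2(RPKM + 1) for the tested members and for 5 signalling lists; each point is a gene, filled points passed an adjusted p of 0.05 and the bar is the list's median. The members' median of 0.20 is positive, and that of the TNF-induced genes is -0.27 with 4 filled points, all negative.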

How the data were processed

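Gene-level RPKM values were used as deposited by the authors, 1 table per library, for 6 libraries of AC16 cells. Per the submitters' processing notes, FastQC, fastp, HISAT2, StringTie, RSEM and the build hg19 were used, with no role or order stated. No source used here states the gene models, the use of strand or how reads shared between genes were assigned. Read depth is unknown, so no counting intervals are given. Values were tested as log2(RPKM + 1) for 14159 genes with a mean of at least 1 RPKM, with limma 3.58.1 in R 4.3.3 (two-sided, variance trend, Benjamini-Hochberg adjustment over all genes tested, threshold 0.05). A fold change on this scale understates the change of low genes. The fit was tested on simulated data. Alternatives were other pseudocounts and filters, scaling to a common sum, quantile normalization, removal of a length and GC trend, no variance trend, a replicate block and leaving out each library.

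Every member that passed, or whose groups did not overlap, is given in every library. Other tested members are given by means or log2 fold change, and the rest by count, range and name. From each signalling list up to 4 calls are named, or up to 2 tested genes where none passed. Members and lists were chosen with earlier results of these data known. Shares and ratios within a library, and the alternatives for the TNFRSF10D share, were chosen after seeing the data. Overlaps, lengths and GC content came from GENCODE 29 (95.2% of tested genes), and promoters and gene order from RefSeq GRCh38.p14, a build other than that of the tables. CD40LG was not analysed here, and 1 marker gene is not reported here by name.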

Additional observations from a re-analysis of the deposited data

How the results depend on the processing

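Of 21 tested members, 17 kept the sign of their log2 fold change under every alternative that gave them a value, which was 15 for 13 members and 14 for the 8 members under the filter of 5 RPKM. TNFSF4 and TNFRSF11B passed under all 9 alternatives that kept every library, and 4 members passed once the trend on length and GC was taken out, where 1893 of 13481 genes passed. Leaving out each library in turn gave 0 to 2 members, with 1 without control 1 and 0 without PA 2, where only 15 and 10 of all genes passed. The sign reversed for TNFRSF10B (-0.021 with a common sum, -0.057 to 0.21 when each library was left out, the lowest without PA 1), TNFRSF1A (-0.093 with a common sum, -0.032 with quantile normalization, -0.068 with the length and GC trend removed, -0.080 to 0.14 when each library was left out), FAS (-0.028 with a common sum) and TNFRSF25 (-0.24 to 0.00080 when each library was left out, the highest without control 2). A common sum moved the median of all genes to -0.11, with 36.0% of them positive. Under it 12 of the 21 tested members were positive, in place of 15. The adaptor list, with 1 call, gave 0 with no filter, with a common sum, with no variance trend and when each library was left out (0 to 0), 2 with a mean of at least 5 RPKM and 4 with the length and GC trend removed. The death signalling list, with 1 call, gave 0 with no filter or quantile normalization and 0 to 1 when each library was left out. The NF-kB list gave 2 with the length and GC trend removed. The TNF-induced list, with 4 calls, gave 0 with no filter, 9 with the length and GC trend removed and 0 to 4 when each library was left out. The cause was not tested.

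With the replicate number as a block, 98 genes passed in place of 681, and the members were still TNFSF4 and TNFRSF11B (2 calls, limma adjusted p = 0.0469 and 0.0414), while the adaptor, death signalling and TNF-induced lists gave 0. Same-numbered libraries correlated at 0.157, -0.0144 and 0.0371 in their deviations, and not every library correlated best with its own number, so the numbers were not taken as pairs.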

Other observations

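By gene order in RefSeq, 21 of the 42 members lie beside another member, in 8 groups. FASLG, TNFSF18 and TNFSF4 form a group in that order on chromosome 1. TNFSF18 and TNFSF4 both had PA values above all control values. FASLG was listed at 0 in all PA libraries and at no more than 0.03 RPKM in control, too low for a contrast. TNFSF9, CD70 and TNFSF14 form a group in that order on chromosome 19. CD70 and TNFSF14 had overlapping groups and lay below the filter of 1 RPKM.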
